A study of Mus musculus with 6 samples.

Results

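Interferon-stimulated genes are the transcripts that cells switch on when interferon binds its receptors. The set described here was given as 44 named mouse genes, and every probe set of the array table whose platform gene symbol was one of them was taken. Of the 44, 40 had a single-gene probe set, among 18029 genes measured in all, and Isg15, Oas1a, Oas1g and Ifi44 were not analysed here. The brightest probe set by the mean of all 6 arrays stood for each gene. Values are log2 intensities made by the authors with RMA, so a difference of 1 is a doubling.

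Livers came from 3 control mice with floxed RECS1 alleles (genotype RECS1-flox) and from 3 mice lacking RECS1 in hepatocytes (RECS1-HKO, called HKO). RECS1 is the label's name for the gene Tmbim1, whose product spans membranes. All mice were C57BL/6 and 16 weeks old, and all had received a high-fat diet (HFD) for 8 weeks from the age of 8 weeks. Neither the Cre driver nor the sex of the animals is stated in the labels. The comparison addresses how hepatocyte loss of RECS1 alters the liver transcriptome under this diet. Arrays of a genotype correlated at 0.9948 to 0.9964 across genes and arrays of different genotypes at 0.9910 to 0.9940. Tmbim1 stood at 7.62, 7.58 and 7.74 in the controls and at 7.19, 7.14 and 7.06 in the HKO livers, a fall of 0.52 ± 0.08 (SE; adjusted p = 0.026, limma). It lay between -0.554 and -0.475 without 1 array, with adjusted p from 0.065 to 0.0967. The labels do not say whether this probe set reads the exons that were removed. The tissue label held for its defining markers, with the hepatocyte transcript Alb between 13.55 and 13.64 on all 6 arrays.

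Type I interferons, interferon alpha and beta, bind a receptor whose kinases activate transcription factors, STAT2 among them. A complex that holds STAT2 and IRF9 binds the interferon-stimulated response element (ISRE) in promoters. Interferon gamma acts through the gamma-activated site (GAS). IRF7, itself induced by interferon, amplifies the production of interferon alpha. In liver, hepatocytes, Kupffer cells, endothelial cells and lymphocytes can all respond. The RNA here is from whole liver, so fewer cells of a type and less RNA per cell cannot be told apart.

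The response elements can be read in the promoters of the genes themselves. RefSeq windows of assembly GRCm38.p6, from 250 bases before to 50 bases after each start, were found for 29 of the 40 genes. The letters GAAANNGAAA, or TTTCNNTTTC on the other strand, sought as the ISRE, occurred in 13 of these 29 genes (44.8%), against 3.44% of all 32851 windows and 3.99% of all 27025 genes with a window. TTCNNNGAA, sought as the GAS and the same on both strands, occurred in 7 of the 29 (24.1%), against 8.3% of windows and 9.55% of genes. Shown are stretches of 100 bases from 7 genes: Bst2, the only gene of the set past the threshold, Stat2, with the next lowest p, and 5 genes that did not pass, chosen to cover the IFIT, viperin and GTPase families. ISRE letters are in capitals, and all stretches are written 5′ to 3′ in the direction of the gene.
Bst2, chr8:71537557-71537656, minus strand: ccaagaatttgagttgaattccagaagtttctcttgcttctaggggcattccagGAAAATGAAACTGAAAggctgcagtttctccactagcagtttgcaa
Stat2, chr10:128270248-128270347, plus strand: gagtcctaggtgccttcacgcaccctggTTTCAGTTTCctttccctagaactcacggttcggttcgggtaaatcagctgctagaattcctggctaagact
Ifit1, chr19:34640744-34640843, plus strand: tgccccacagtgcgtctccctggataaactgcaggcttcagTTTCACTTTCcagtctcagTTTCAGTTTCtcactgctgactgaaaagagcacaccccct
Ifit3, chr19:34583347-34583446, plus strand: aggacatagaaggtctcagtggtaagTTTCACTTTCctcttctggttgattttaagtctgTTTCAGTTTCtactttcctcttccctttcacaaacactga
Rsad2, chr12:26456533-26456632, minus strand: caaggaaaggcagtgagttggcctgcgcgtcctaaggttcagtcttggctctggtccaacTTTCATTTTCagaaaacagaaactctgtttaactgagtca
Gbp2, chr3:142620544-142620643, plus strand: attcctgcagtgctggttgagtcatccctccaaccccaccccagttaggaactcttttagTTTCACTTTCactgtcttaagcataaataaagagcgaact
Igtp, chr11:58199456-58199555, plus strand: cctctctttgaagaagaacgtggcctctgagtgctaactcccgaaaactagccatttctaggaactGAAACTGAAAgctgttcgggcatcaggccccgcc

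In Bst2 the capitals are 2 overlapping matches, and a GAS match overlaps the first of them. The ISRE closest to the start begins 124 bases before it in Bst2, 222 in Stat2, 85 in Ifit1, 122 in Ifit3, 120 in Rsad2, 59 in Gbp2 and 34 in Igtp. A match describes letters and does not show that a factor binds. Both Bst2, which fell, and Ifit1, whose genotype means were nearly equal, carry 2 matches. The 13 genes with an ISRE had a median log2 fold change of -0.02 and the 16 without one -0.14, with ranges from -0.42 to 0.33 and from -0.50 to 0.38.

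Of the 40 interferon-stimulated genes of the set, none rose in HKO liver, 1 (Bst2) fell and 39 did not pass (limma, Benjamini-Hochberg adjusted over all 18029 genes). Of all genes 0.56% rose and 0.449% fell, 1.01% in either direction. At an unadjusted p under 0.05, 7 of the 40 were lower and none was higher, against 6.96% of all genes lower and 6.03% higher. The log2 fold change was below 0 in 28 of the 40 (70%), against 51.2% of all genes. Its median was -0.14 and ranged over single genes from -0.50 for Psmb9 to 0.38 for Cmpk2, while the median over all genes was -0.004. The HKO values lay wholly below the control values in 7 genes (Bst2, Stat2, Psmb8, Psmb9, Tap1, Trim25 and Iigp1) and wholly above them in none, against 10.1% and 8.58% of all genes. Of the 40, 35 were above the median gene level of 4.69. Among the 9014 genes above that level the HKO values lay wholly below in 1300 and wholly above in 989. Of those 9014, 894 were lower and 723 higher at an unadjusted p under 0.05 (limma), and 53.4% had a fold change below 0.

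**Figure D1:**
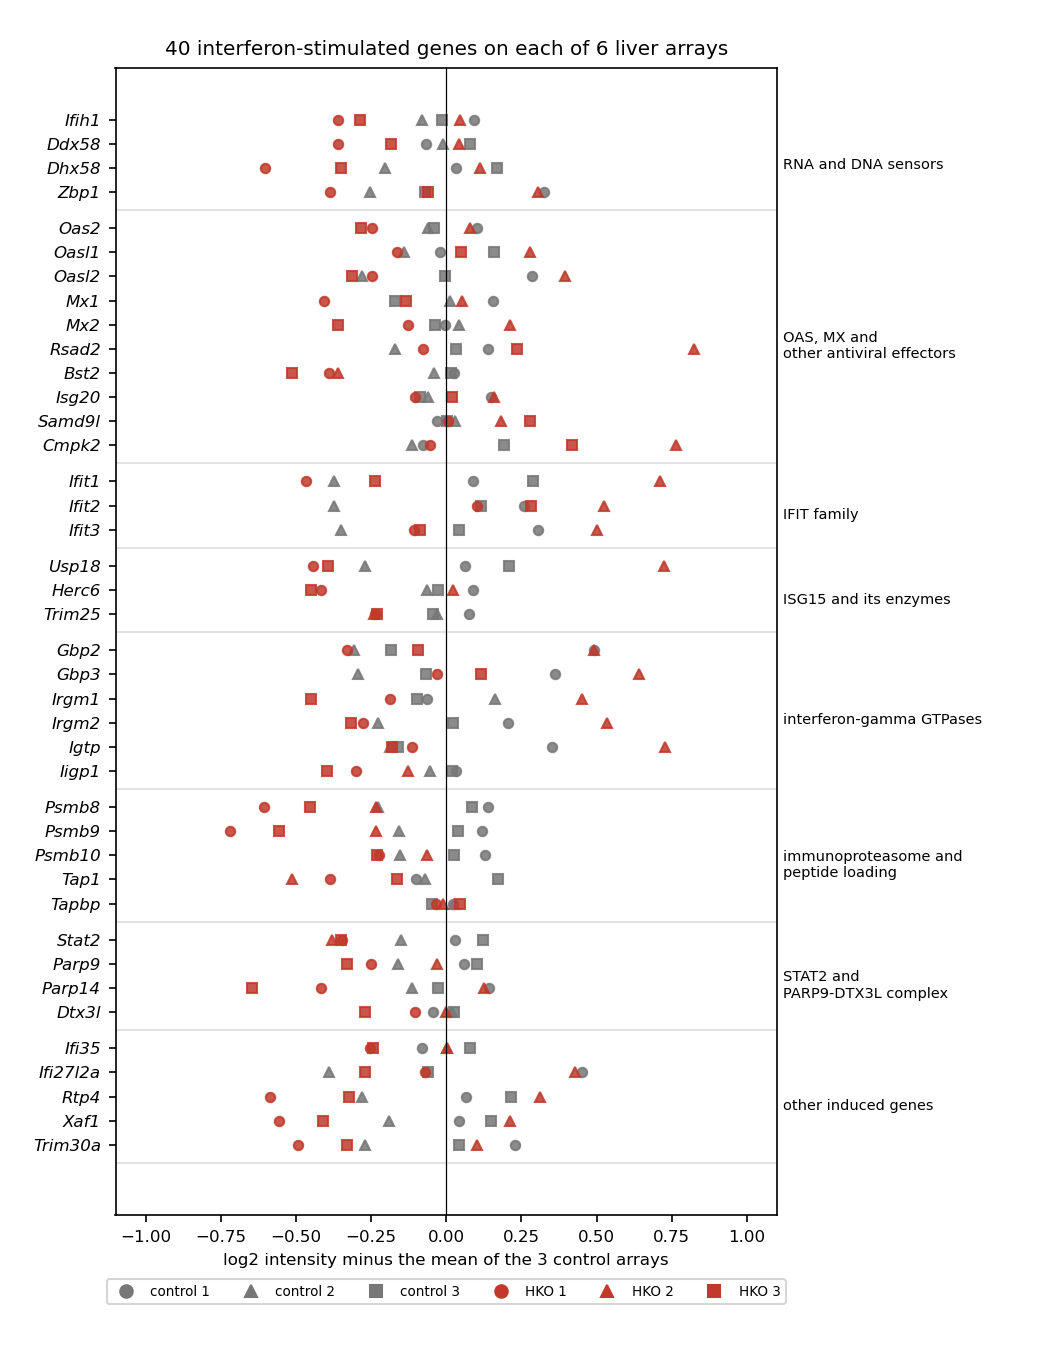
Log2 intensity of each of the 40 interferon-stimulated genes on each array, less the mean of the 3 control arrays (x axis, log2 units), grouped by role. Gray marks are control and red marks HKO livers, with circle, triangle and square for replicates 1, 2 and 3. The red triangle, HKO 2, is the highest HKO mark in 35 of the 40 genes. HKO 1 and HKO 3 both lie left of all 3 controls in 24 of the 40.

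The livers of the HKO group did not behave alike for these genes. HKO 2 was the highest of the 3 HKO arrays in 35 of the 40 (87.5%), against 32.8% of all genes and 23.9% of those above the median level. Relative to the HKO mean of each gene, the median of the 40 was 0.29 on HKO 2, -0.18 on HKO 1 and -0.09 on HKO 3. Over genes above the median level the corresponding medians lay between -0.025 and 0.019. The controls differed less, with medians of 0.09 on control 1, -0.15 on control 2 and 0.02 on control 3, and control 2 was the lowest control in 29 genes. The highest and lowest HKO arrays were more than 0.5 log2 units apart in 19 of the 40 genes (47.5%), against 6.55% of all genes. The median SD among HKO livers was 0.26 over the 40 and 0.10 over all genes.

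Set against the controls, HKO 1 and HKO 3 were both below all 3 controls in 24 of the 40 genes, a pattern found in 15.5% of all genes. HKO 2 was above all 3 controls in 17 of the 40 and below all 3 in 7, against 26.1% and 29.2% of all genes. Without HKO 2 the median log2 fold change of the 40 was -0.27, with 34 below 0. In that fit 20 of the 40 had an unadjusted p under 0.05, all lower in HKO, against 6.31% of all genes lower, but none passed after adjustment, the lowest adjusted p being 0.0636 for Psmb9. Without HKO 1 the median was -0.06 and without HKO 3 -0.07, with 23 genes below 0 in each. Without control 1, 2 or 3 it was -0.10, -0.17 and -0.11. An unadjusted p under 0.05 (limma) was found for 10 of the 40 without HKO 1, 7 of them lower in HKO. Without HKO 3 it was found for 6, all lower. Of all genes 6.36% and 5.69% were lower at that p in these 2 fits. The 40 genes shifted together by array and HKO 2 was singled out from these same values, so such counts are not of independent results.

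**Figure D2:**
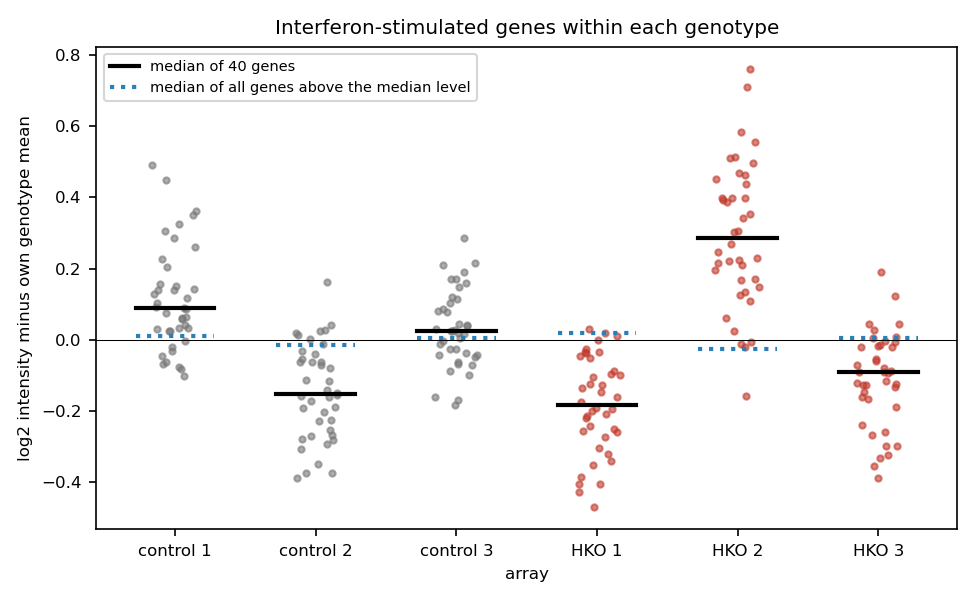
Deviation of each of the 40 genes from the mean of its own genotype (y axis, log2 units) on each array (x axis), with 1 point per gene, black bars for the median of the 40 genes and blue dotted bars for the median of all genes above the median level. The black bar of HKO 2 stands at 0.29 and that of HKO 1 at -0.18, while the blue bars lie between -0.025 and 0.019.

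Markers of other cells were read on the same arrays, and their part in the array pattern was not tested. None of 9 Kupffer cell and macrophage markers passed. Their summed linear intensity was 2723 to 3898 in the controls, highest on control 1, and 3175 to 3636 in the HKO livers, highest on HKO 2. HKO 2 was the highest HKO array in 5 of the 9, against 32.8% of all genes and 23.9% of those above the median level. Marco, a macrophage scavenger receptor, stood at 6.34, 4.94 and 4.79 in the controls and at 5.98, 8.11 and 5.07 in the HKO livers. Adgre1, which encodes the macrophage antigen F4/80, was likewise highest on HKO 2, at 7.11 against 6.56 and 6.27. The Kupffer cell markers Cd5l (10.42 against 10.10 and 10.07) and Timd4 (5.43 against 4.94 and 4.47) were also highest on HKO 2. The Kupffer cell markers Clec4f (8.03 against 8.45 and 8.43) and Vsig4 (8.88 against 9.04 and 9.18) were instead lowest on HKO 2 among the HKO livers. Ccr2, a chemokine receptor of monocytes, had the lowest p of the list and lay below all controls in the 3 HKO livers (-0.36 ± 0.10, adjusted p = 0.188). None of 11 T and NK cell markers passed, and their summed intensity was 152.2 to 195.0 in the controls and 158.9 to 174.7 in the HKO livers. Ifng, the interferon that these cells make, was the dimmest of those markers, at 1.36 to 1.69 in the controls and 1.21 to 1.41 in the HKO livers. None of 7 hepatocyte, 6 endothelial, 5 B cell, 5 conventional dendritic cell and 4 neutrophil markers passed. The hepatocyte factor Hnf4a lay below all controls in the 3 HKO livers (-0.28 ± 0.12, adjusted p = 0.370). Alb (0.06) and Ttr (0.08) lay above all controls in those livers, and 4 of the 7 hepatocyte markers had values above 0. On HKO 2, 5 of the 6 endothelial markers were below all controls, against 29.2% of all genes and 3440 of 9014 genes above the median level. The summed intensity of the neutrophil markers was 217.9 on control 1, against 102.7 and 101.7 on the other controls and 81.6 to 111.6 in the HKO livers.

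The RNA and DNA sensors start the response by detecting viral nucleic acid. All 4 had values below 0 and none passed. Ifih1 (MDA5, a sensor of long double-stranded RNA) stood at 8.10, 7.93 and 8.00 in the controls and at 7.65, 8.06 and 7.73 in the HKO livers, a difference of -0.20 ± 0.11. HKO 1 and HKO 3 lay below every control and HKO 2 lay among them. Ddx58 (RIG-I), at -0.17, and Dhx58 (LGP2), a regulator of both helicases, at -0.28, had the same arrangement, and the adjusted p of these 3 genes lay between 0.520 and 0.576. Dhx58 turned to 0.124 by the median of its 3 probe sets, of which the other 2 are dim. Zbp1, a sensor of nucleic acids in the Z form, stood at -0.05.

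Among the antiviral effectors, Bst2 was the gene that passed. It encodes tetherin, which holds budding virus particles at the cell surface. Bst2 stood at 8.70, 8.64 and 8.69 in the controls and at 8.29, 8.32 and 8.16 in the HKO livers. The groups did not overlap, and the 3 HKO arrays were within 0.153 of each other, HKO 2 included. The gene fell by 0.42 ± 0.07 (SE), to 0.746 times the control level (adjusted p = 0.0481). The call was lost in each of the 6 fits that left out 1 array (fold changes from -0.453 to -0.376, adjusted p from 0.0826 to 0.157), nor with arrays centred on their medians (0.0502). Bst2 has 1 probe set here. It is also a marker of plasmacytoid dendritic cells, and none of the other 7 markers of these cells passed. Their summed intensity was 200.5 to 214.6 in the controls and 200.1 to 214.7 in the HKO livers.

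Rsad2 encodes viperin, which makes an antiviral nucleotide, and Cmpk2 is the kinase that supplies its substrate. Rsad2 stood at 8.03, 7.72 and 7.92 in the controls and at 7.81, 8.72 and 8.13 in the HKO livers (0.33 ± 0.21, adjusted p = 0.563). Cmpk2 stood at 5.08, 5.04 and 5.35 in the controls and at 5.10, 5.92 and 5.58 in the HKO livers (0.38 ± 0.19, adjusted p = 0.461). In both genes HKO 2 was the highest and HKO 1 lay within the control range. Without HKO 2 the fold change of Rsad2 was 0.078 and that of Cmpk2 0.183, and without HKO 1 they were 0.530 and 0.591. The 3 probe sets of Rsad2 had the same sign, at 0.33, 0.40 and 0.28.

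The other effectors lay nearer 0, and none passed. Oas2 (-0.15), Oasl1 (0.05) and Oasl2 (-0.06) belong to the oligoadenylate synthetase family. Some members of this family make the product that activates RNase L. Mx1 (-0.16) and Mx2 (-0.09) are dynamin-like GTPases, and Mx1 is defective in C57BL/6 mice. Both lay below the median gene of 4.69. Isg20, an exonuclease, stood at 0.02. Samd9l, a translation inhibitor, stood at 6.77, 6.83 and 6.81 in the controls and at 6.81, 6.98 and 7.08 in the HKO livers (0.16 ± 0.09, adjusted p = 0.508). It was 1 of 5 genes of the set in which HKO 2 was not the highest HKO array, the others being Trim25, Tap1, Tapbp and Stat2.

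The IFIT proteins bind viral RNA and are among the transcripts that type I interferon induces most. Ifit1 stood at 6.77, 6.31 and 6.97 in the controls and at 6.22, 7.40 and 6.45 in the HKO livers. Its genotype means were 6.68 ± 0.34 and 6.69 ± 0.62 (SD, n = 3 each), with a difference of 0.00 ± 0.30. HKO 2 was the highest of the 6 arrays and HKO 1 the lowest, 1.18 log2 units apart. Ifit2 stood at 0.30 ± 0.17 and Ifit3 at 0.10 ± 0.20. Without HKO 2 the values of Ifit1, Ifit2 and Ifit3 were -0.352, 0.193 and -0.097.

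Isg15 is a ubiquitin-like modifier that its enzymes attach to and remove from proteins. Usp18, the protease that removes it and that also blocks the type I interferon receptor, had the largest SD of the set. It stood at 6.74, 6.40 and 6.88 in the controls and at 6.23, 7.40 and 6.28 in the HKO livers (-0.04 ± 0.29). HKO 2 lay above every control, and HKO 1 and HKO 3 below every control. Herc6, the mouse ligase of Isg15, stood at 6.20, 6.04 and 6.08 in the controls and at 5.69, 6.13 and 5.66 in the HKO livers (-0.28 ± 0.13, adjusted p = 0.416), and at -0.104 by the median of its 4 probe sets. Trim25, a ligase that acts on RIG-I, stood at 9.14, 9.03 and 9.02 in the controls and at 8.83, 8.82 and 8.83 in the HKO livers. The Trim25 groups did not overlap, but the difference of -0.24 ± 0.07 did not pass (adjusted p = 0.218). Its other probe sets were both at -0.18.

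The GTPases induced by interferon gamma, which take part in defence against intracellular microbes, had the widest spread among HKO livers, with a median SD of 0.44. All 6 were highest on HKO 2 within the HKO group. Igtp stood at 8.48, 7.94 and 7.97 in the controls and at 8.02, 8.86 and 7.95 in the HKO livers (0.15 ± 0.25). Irgm2 stood at 7.42, 6.99 and 7.24 in the controls and at 6.94, 7.75 and 6.90 in the HKO livers (-0.02 ± 0.22). HKO 2 exceeded every control in both, while HKO 1 and HKO 3 lay within the control range for Igtp and below it for Irgm2. Irgm1 (-0.06), Gbp2 (0.02) and Gbp3 (0.24) likewise did not pass, and control 1 was the highest control in Gbp2 and Gbp3. Iigp1, the brightest gene of the set, stood at 11.52, 11.43 and 11.51 in the controls and at 11.19, 11.36 and 11.09 in the HKO livers. Its groups did not overlap, with a difference of -0.28 ± 0.09 (adjusted p = 0.243). These GTPases have close paralogs, and how far their probe sets share signal was not tested.

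The immunoproteasome replaces the standard proteolytic subunits when cells meet interferon and yields peptides for class I molecules. All 5 genes of this group had values below 0, although Tapbp stood at only -0.0005. Their median was -0.35, the value of the dim gene Tap1, and none passed. Psmb9 (LMP2) stood at 7.79, 7.52 and 7.71 in the controls and at 6.96, 7.44 and 7.12 in the HKO livers, the lowest fold change of the set (-0.50 ± 0.13, adjusted p = 0.167). Psmb8 (LMP7) stood at 7.71, 7.34 and 7.66 in the controls and at 6.96, 7.34 and 7.12 in the HKO livers (-0.43 ± 0.13, adjusted p = 0.210). HKO 2 was the HKO array closest to the controls in both, and in Psmb8 it stood at 7.335, just below the lowest control at 7.345. By the median of its 2 probe sets Psmb8 stood at -0.196, the other probe set being dim and at 0.04. The third subunit, Psmb10 (MECL-1), stood at 7.38, 7.10 and 7.28 in the controls and at 7.03, 7.19 and 7.03 in the HKO livers (-0.17 ± 0.10, adjusted p = 0.505), and its groups overlapped.

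Tap1, a chain of the transporter that carries peptides into the endoplasmic reticulum, stood at 2.26, 2.28 and 2.53 in the controls and at 1.97, 1.84 and 2.19 in the HKO livers (-0.35 ± 0.11, adjusted p = 0.247). These values are far below the median gene of 4.69, where RMA compresses differences. Psmb9 and Tap1 run in opposite directions from overlapping promoter windows, chr17:34187281-34187580 and chr17:34187306-34187605, neither of which holds the ISRE or GAS letters searched. Tapbp (tapasin), which bridges the transporter and class I molecules, stood at 0.00 ± 0.07. Genes of the same route that are not in the set were named after their values were seen. Tap2, the partner of Tap1, stood at -0.41 ± 0.11 (adjusted p = 0.157), while the class I chains B2m (0.01), H2-K1 (-0.02) and H2-D1 (-0.05) stood near 0.

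Stat2 is the transcription factor of the type I response. It stood at 5.46, 5.28 and 5.55 in the controls and at 5.09, 5.05 and 5.08 in the HKO livers. The groups did not overlap, and the HKO SD was 0.02. The difference of -0.36 ± 0.09 had the lowest p of the set after Bst2 but did not pass (adjusted p = 0.133, and 0.0684 to 0.312 over 14 refits). Its other probe set stood at -0.32. Parp9 and Dtx3l form a complex that modifies histones, and Parp14 is a related ADP-ribosyltransferase. Parp9 stood at 8.50, 8.28 and 8.54 in the controls and at 8.19, 8.41 and 8.11 in the HKO livers (-0.20 ± 0.11, adjusted p = 0.480), Dtx3l at -0.13 and Parp14 at -0.31 (-0.143 by the median of its probe sets).

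In the rest of the set, Ifi35 stood at 8.74, 8.83 and 8.90 in the controls and at 8.57, 8.83 and 8.58 in the HKO livers (-0.16 ± 0.09, adjusted p = 0.518). Xaf1, a proapoptotic gene, stood at -0.25, Trim30a, a regulator of Toll-like receptor signalling, at -0.24 (-0.107 by the median of its probe sets), Rtp4 at -0.20 and Ifi27l2a at 0.03. In all 5 HKO 2 was the highest HKO array, by a median of 0.60 over the mean of HKO 1 and HKO 3.

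**Figure D3:**
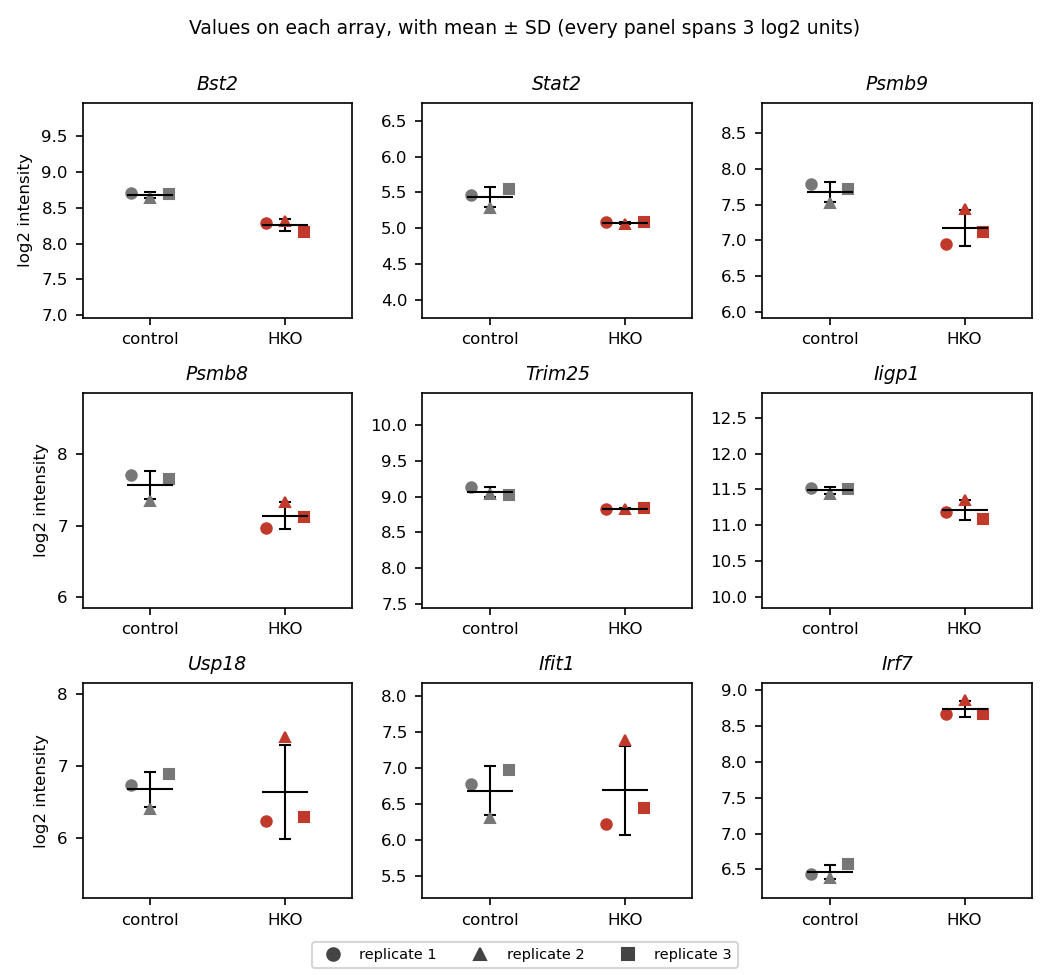
Log2 intensity (y axis) on each array for 8 interferon-stimulated genes and for Irf7, with black bars for the mean ± SD of 3 arrays. The panels of Bst2, Stat2, Psmb9, Psmb8, Trim25 and Iigp1 show HKO values below the control values, those of Usp18 and Ifit1 show HKO 2 above the other HKO arrays, and in Irf7 all HKO values lie between 8.67 and 8.86 against 6.38 to 6.58 in the controls.

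The pathway that induces these genes was read from lists of 58 genes, of which 44 were measured. Of the 44, 4 rose, none fell and 40 did not pass, against 0.56% of all genes that rose and 0.449% that fell. The 4 of the list that rose were the interferons Ifna4 and Ifnb1, the factor Irf7 and Myd88, the adaptor of most Toll-like receptors. Myd88 went from a mean of 6.67 to 8.37 (1.70 ± 0.07, adjusted p = 1.17e-05). Ifnb1 stood at 2.81, 2.46 and 2.53 in the controls and at 4.70, 4.71 and 4.68 in the HKO livers (2.10 ± 0.10, adjusted p = 3.34e-05), and Ifna4 went from a mean of 2.55 to 4.73 (2.19 ± 0.09, adjusted p = 1.17e-05), so that both control levels are below the median gene. Irf7 stood at 6.43, 6.38 and 6.58 in the controls and at 8.67, 8.86 and 8.67 in the HKO livers (2.27 ± 0.09, adjusted p = 1.17e-05). Each of these genes has 1 probe set.

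The remaining pathway genes did not pass. Ifna1 stood at 0.20 (adjusted p = 0.332) and Ifng at -0.14 (0.655). Among 6 receptor chains the values ran from -0.18 for Ifnlr1 to 0.14 for Ifnar1, with Ifnar2 at -0.13 and Il10rb at -0.09. Among the kinases, STATs and feedback genes, Socs3, an inhibitor of JAK kinases, had the lowest p, at -0.59 ± 0.16 (adjusted p = 0.164), followed by Stat3 at -0.32 (0.330), while the phosphatase genes Ptpn2 and Ptpn1 stood at 0.13 and -0.13. Among adaptors and kinases upstream of interferon, Sting1 stood at -0.26 (0.265), Tbk1 at -0.10 and Tlr7 at -0.08. Of 8 interferon regulatory factors 7 had values below 0, with Irf5 at -0.61 (0.142), Irf3 at -0.24 (0.203) and Irf1 at -0.46 (0.297). Irf9, the partner of Stat2, which was named after its value was seen, stood at -0.02 and was highest on HKO 2, at 6.85 against 6.45 and 6.16.

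A further list of 64 interferon-induced genes outside the set had 50 measured members. Of these, 3 rose, 1 fell and 46 did not pass, against 0.56% of all genes that rose and 0.449% that fell. The 3 that rose were chemokines: Ccl5 (2.69 ± 0.07, adjusted p = 1.94e-06), Cxcl10 (2.55 ± 0.16, 0.000159) and Cxcl9 (1.90 ± 0.13, 0.000458). Cxcl9 has a second, dim probe set at -0.01, and with probe sets summarised by their median its fold change was 0.94. Ly6e, which encodes a membrane protein that restricts coronaviruses, stood at 9.53, 9.39 and 9.37 in the controls and at 8.89, 8.97 and 9.0 in the HKO livers, a fall of 0.48 ± 0.08 (adjusted p = 0.0352) that passed in 6 of 14 refits. The median of this list was -0.01, and 27 of its 50 members were below 0, against 51.2% of all genes. HKO 2 was the highest HKO array in 34 of the 50, against 32.8% of all genes.

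**Figure D4:**
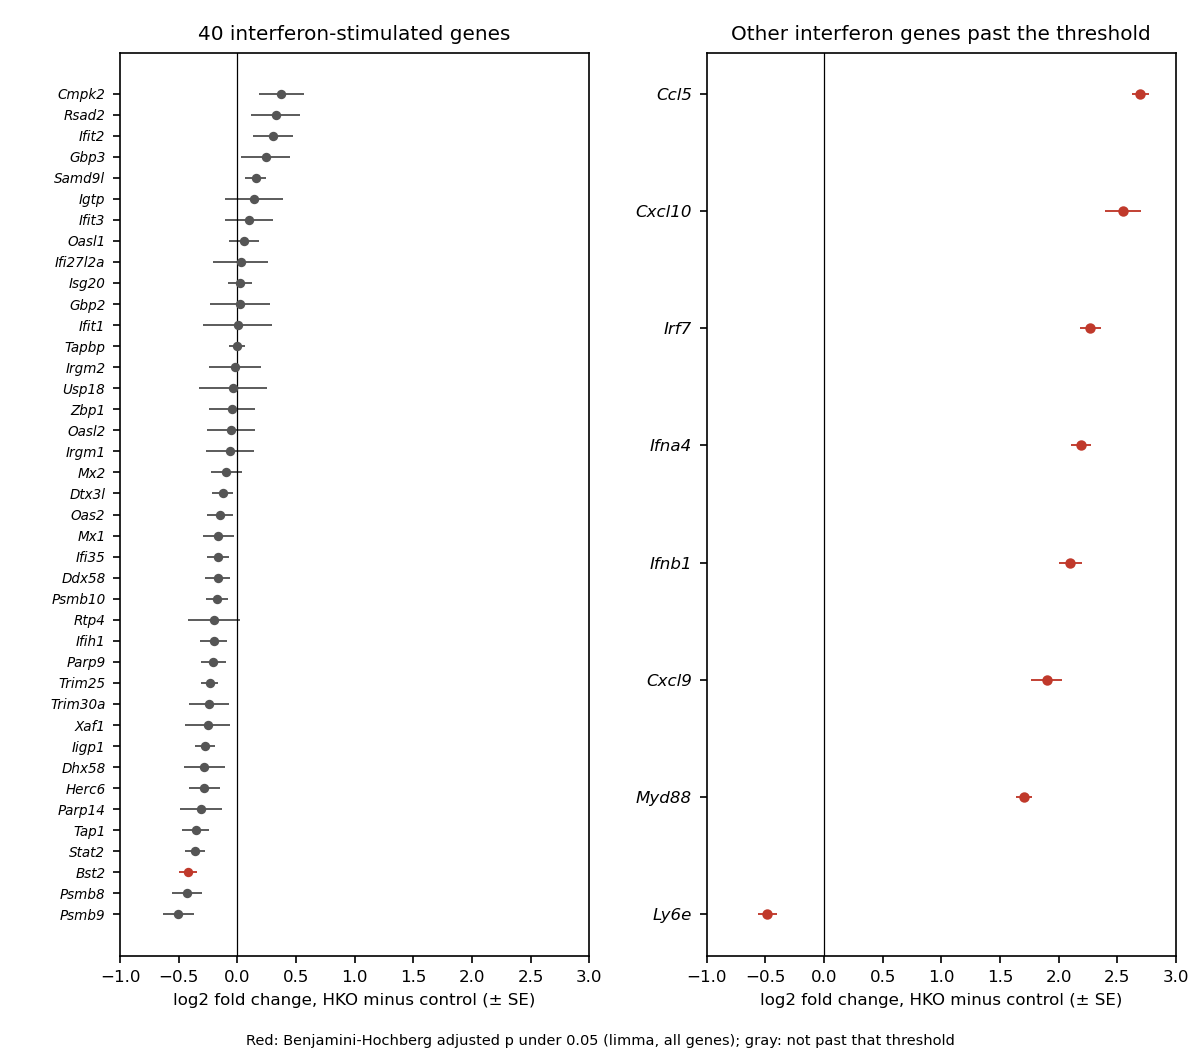
Log2 fold change, HKO minus control, with its SE (x axis) for the 40 interferon-stimulated genes (left) and for the 8 genes of the pathway and further lists that passed the threshold (right), on the same scale. Red marks genes with an adjusted p under 0.05. The 40 genes lie between -0.50 and 0.38, and 7 of the 8 on the right lie between 1.70 and 2.69.

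Of the 40 genes 19 have more than 1 probe set, and in 14 of these all probe sets had the same sign. No probe set of the 40 genes passed when all 34325 single-gene probe sets were tested one by one, a choice made after the data were seen, in which Bst2 had an adjusted p of 0.062. The sign of the fold change was the same in every one of the refits in 25 of the 40 genes, 20 of them below 0. Bst2 was the only gene of the set that passed in any refit.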

How the data were processed

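Total RNA (400 ng) of 6 livers was labelled with biotin and hybridised to Affymetrix arrays, per the labels' protocols. The deposited log2 values of 38208 probe sets came from RMA run by the authors. RMA and limma are named in the submitters' processing notes, with neither version nor settings. RMA brings arrays to a common distribution and shrinks differences of dim probe sets. The platform annotation gave 34325 probe sets 1 gene symbol (62 have several, 3808 are unnamed here, 13 are controls), and 34131 matched a RefSeq gene by identifier, for 18029 genes. No arrays were identical.

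HKO minus control was fitted with limma 3.58.1 in R 4.3.3 (lmFit, eBayes, two-sided, genotype only). P-values were adjusted by Benjamini-Hochberg over all genes, and 0.05 was the threshold. The 14 refits are 8 alternatives (quantile normalization, centring, brighter genes only, 2 other choices of probe set, array weights, a robust trended eBayes, replicate block) and 6 fits without 1 array. An exact permutation test of 3 against 3 cannot go below 0.1. The steps were tested on simulated data with a spread modelled on all genes. Of genes changed by 0.5 log2 units 46.3% were recovered, of those changed by 1 92.5%, and of those changed by 2 100%. Of 162 simulated calls 3 were false. The 40 genes varied more among HKO livers than all genes did (median SD 0.26 against 0.10). The series' design text calls the samples of a genotype biological samples.

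The genes and lists were chosen with earlier results of these data known. Values on every array are given for genes of the set that passed, the 12 with the lowest p, the 4 with the largest SD in a genotype and the 3 brightest, with Ifih1 and Rsad2 added after their values were seen. Of the further list and each pathway list, the genes that passed and the 4 with the lowest p were named. Cell markers shown singly were chosen after their values were seen.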

Additional observations from a re-analysis of the deposited data

How the results depend on the processing

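With 3 arrays a genotype, precision is limited by their number. The number of the 40 genes past the threshold was 1 in the comparison and 0 with arrays centred on their medians, with the replicate block, with every probe set tested on its own (chosen after seeing the data), and also 0 in each of the 6 fits without 1 array. Replicate numbers did not pair the samples (correlations of same-numbered deviations -0.094, 0.069 and 0.112). With the replicate block 125 genes passed in all, Bst2 stood at -0.422 (adjusted p = 0.115) and Tmbim1 at -0.52 (0.0828). Without 1 array each, 78 to 161 of all genes passed against 182 with all arrays (94, 81 and 84 without control 1, 2 and 3, and 78, 161 and 92 without HKO 1, 2 and 3), Tmbim1 lay between -0.554 and -0.475 with adjusted p from 0.065 to 0.0967, and the median of the 40 between -0.272 and -0.056, which was farthest from -0.138 without HKO 2. Among genes above the median level only, 2 pathway genes passed in place of 4, since Ifna4 and Ifnb1 lie below that level. Ly6e did not pass by the median of probe sets (-0.304), with the replicate block (-0.483) or without 1 array. Signs turned in 14 of the 40 genes without 1 array, as ranges: Zbp1 -0.225 to 0.122, Oasl1 -0.058 to 0.164, Oasl2 -0.281 to 0.087, Mx2 -0.244 to 0.041, Isg20 -0.042 to 0.099, Ifit1 -0.352 to 0.238, Ifit3 -0.097 to 0.256, Usp18 -0.418 to 0.165, Gbp2 -0.212 to 0.268, Irgm1 -0.32 to 0.132, Irgm2 -0.297 to 0.13, Igtp -0.146 to 0.321, Tapbp -0.025 to 0.016 and Ifi27l2a -0.17 to 0.255. By other choices, signs turned for Dhx58 (0.124, median of probe sets), Irgm2 (0.005, array weights) and Tapbp (0.002 with quantile normalization, 0.0 with centring and 0.032 by the median of probe sets). The cause was not tested.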
